A study of Mus musculus with 6 samples.

Results

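The genes described here encode 3 families of RNA-binding proteins: the heterogeneous nuclear ribonucleoproteins (hnRNPs), the serine and arginine rich splicing factors (SR proteins) and the DEAD-box RNA helicases. Members were chosen by gene symbol from the annotation of the array, with earlier results of these data known, and the rule used no measured value. They were all probe sets annotated to exactly 1 gene whose symbol was Hnrnp followed by a letter, Srsf followed by a number, or Ddx followed by a number with at most 1 further letter. The sex-linked genes Ddx3x and Ddx3y were left out. This gave 171 probe sets of 63 genes, out of 18193 genes with a singly named probe set: 19 hnRNP, 10 SR and 34 DEAD-box genes. A further 7 probe sets that listed several genes, with a family gene among them, were not used. Of the 171 probe sets, 151 were bright enough to be tested, which means a mean intensity at or above 13.5, the 40th percentile of all probe sets. They covered 60 genes, and Ddx4, Ddx43 and Ddx60 had no tested probe set.

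The 6 arrays held RNA of the whole brain of E18.5 mouse embryos, a late stage of gestation, all of C57/bl6 background: 3 from wild types and 3 from Foxf2 mutants. Foxf2 is a forkhead factor active in the pericytes of brain vessels. The labels give neither the mutant allele, nor litters, nor whether an array held the RNA of 1 embryo, so a p-value here measures only the spread between these samples. Many genes of the families are made in most cell types, and in whole-tissue RNA a change in the number of cells of a type cannot be told apart from a change in the RNA of each cell.

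Intensities come from the MAS5 algorithm and are linear. A log2 difference is the mutant mean minus the wild-type mean of log2(intensity + 16), fitted with limma, and a probe set passed the threshold at a p under 0.05 after Benjamini-Hochberg adjustment over all 27022 tested probe sets. Median intensities over all probe sets were 23.1 to 23.6 for the wild types and 24.3 to 25.5 for the mutants. Centring every array on its median moved the median difference of all tested probe sets by -0.05. Foxf2, too dim to be tested, gave intensities of 18.6, 24.4 and 13.8 in wild-type and 8.06, 3.31 and 7.57 in mutant arrays on 1418220_at. On its other probe set, 1447562_at, they overlapped, with 0.834, 0.686 and 4.55 against 0.421, 0.309 and 2.77. The neuronal markers Tubb3, Map2, Stmn2 and Dcx read between 2012 and 4432 on every array. Summed markers overlapped between the groups for neurons (15587 to 16044 in wild-type and 16015 to 16330 in mutant arrays) and for dividing progenitors (2415 to 2528 and 2178 to 2485). Those of radial glia and astrocytes were higher in all mutant arrays (6923 to 7438 and 7822 to 8152), and those of endothelium lower (601 to 626 and 449 to 512). Bright genes weigh most in such sums: 2 of 6 radial glia markers read below 0, with Nes at -0.30 and lower in all mutant arrays, and 2 of 4 endothelial markers read above 0. The pericyte sums overlapped (782 to 1106 and 734 to 821), but all 4 of these markers read below 0, by a median of -0.29, and Pdgfrb (-0.25) and Atp13a5 (-0.51) were lower in every mutant array. Of the 47 markers of 10 cell types 45 had a singly named probe set, none of these was at 0, 1 passed the threshold (Vim, higher), and the skeletal muscle marker Myh3 and the pituitary marker Prl were below the intensity limit for testing. Skeletal muscle markers reached a sum of 929 on mutant array 3, against at most 86.3 on any wild-type array. Pituitary markers reached 1800 on wild-type array 3. The part of these shifts in the differences below was not tested.

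The 3 families act along the path from a new transcript to a translated messenger RNA. hnRNPs coat nascent transcripts and often block the choice of nearby splice sites, while SR proteins bind exonic sequences, recruit the spliceosome and often favour inclusion of the exon. DEAD-box proteins use ATP to unwind short RNA duplexes or to remove proteins from RNA, in splicing, ribosome assembly, export and decay. In the developing brain, shifts in the balance of such factors accompany the change of splicing programme as progenitors become neurons.

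Across the 3 families 3 probe sets rose in the mutant and 0 fell. The risers belonged to 2 genes, the helicase gene Ddx5 with 2 probe sets and the hnRNP gene Hnrnpf with 1. Over all tested probe sets 0.389% passed, 0.366% as risen and 0.0222% as fallen, while 3 of 151 members are 1.99%. By family, 1 of 56 hnRNP, 0 of 32 SR and 2 of 63 DEAD-box probe sets rose. All 3 had the array suffix _x_at, given to probe sets some of whose probes can match other transcripts. Of the family _x_at probe sets 14.3% passed, against 2.45% of all _x_at probe sets. Without probe sets of that suffix 0 family members passed, while 31 of 25391 probe sets of the array rose. The family count was also 0 without any 1 of the 6 arrays. It was 0 as well with median centring, with offset 64, with no filter and without the variance trend. Over all tested probe sets the risen count was itself 0 without the trend. It was also 0 without wild-type array 1, wild-type array 2, mutant array 2 or mutant array 3 alone. That wider count was 34 without wild-type array 3, 28 without mutant array 1, 50 with median centring, 61 with offset 64 and 51 with no filter. The family count was 8 with offset 1 (169 over all tested), 7 with a filter at the 60th percentile (159), 4 with quantile normalization (108) and 3 with array weights (101).

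The centre of each family lay near 0. The median log2 difference was 0.03 for the hnRNP probe sets, 0.01 for the SR probe sets and 0.02 for the DEAD-box probe sets, against -0.01 over all tested probe sets. With median centring the 3 medians turned to -0.02, -0.04 and -0.04, against -0.06 over all tested probe sets. Of the 151 probe sets 84 read above 0 and 67 below. The median of the hnRNP probe sets on single arrays, as log2 relative to the wild-type mean, was 0.02, -0.04 and 0.04 for the wild types and 0.07, -0.01 and 0.02 for the mutants. The groups overlapped on this measure in all 3 families.

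At an unadjusted p under 0.05, 25 family probe sets read higher (16.6%) and 10 lower (6.62%), against 7.78% and 5.8% over the array. The groups stood apart with the mutants higher in 31 of the 151 (20.5%) and with the mutants lower in 13 (8.61%), against 10.9% and 9.38% of all tested. The hnRNP probe sets held the largest number of the higher ones, with 12 of 56 at this unadjusted level (21.4%) against 5 of 32 SR (15.6%) and 8 of 63 DEAD-box probe sets (12.7%). The members were brighter than the array as a whole, with 95 of 151 in the upper tertile of mean intensity. Within that tertile 22.1% of family probe sets read higher at an unadjusted p under 0.05, against 9.38% of all.

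**Figure D1:**
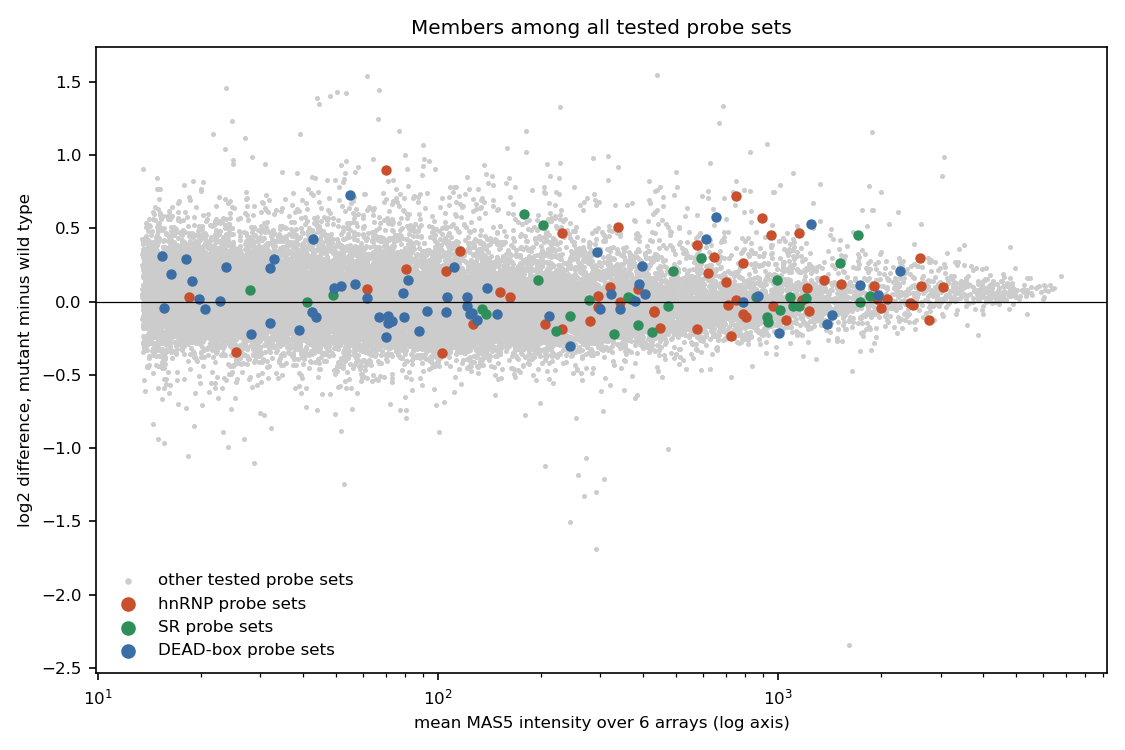
Each point is a tested probe set, with its mean MAS5 intensity over 6 arrays (log axis) against its log2 difference, mutant minus wild type. The hnRNP, SR and DEAD-box probe sets lie around 0 like the grey points of the other probe sets, with family medians of 0.03, 0.01 and 0.02 and single members up to 0.90.

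Ddx5, also known as p68, is a helicase that takes part in transcription, splicing and microRNA processing. All 6 of its tested probe sets read higher in the mutant, 1 of them not with median centring or quantile normalization, and 2 rose. Probe set 1454793_x_at gave 460, 521 and 595 in wild-type and 752, 770 and 838 in mutant arrays. The lowest mutant array stood above the highest wild-type array, with means of 526 ± 67.6 and 787 ± 45.5 (SD, n = 3) and a log2 difference of 0.57 ± 0.09 (SE; limma adjusted p = 0.0482). Probe set 1433810_x_at gave 35.5, 41.4 and 35.4 in wild-type and 66.6, 81.2 and 70.0 in mutant arrays, again without overlap (log2 difference 0.73 ± 0.12, SE; limma adjusted p = 0.0482). Probe set 1438371_x_at gave 909, 1034 and 1106 against 1431, 1368 and 1623, a difference of 0.53 that missed the threshold (limma adjusted p = 0.0544).

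The Ddx5 probe sets without the _x_at suffix differed less. The 1423645_a_at intensities were 1700, 1632 and 1672 in wild-type and 1874, 1755 and 1778 in mutant arrays, which did not overlap (log2 difference 0.11, limma adjusted p = 0.426). The 1419653_a_at values overlapped, with 1950, 1871 and 1976 against 2062, 1945 and 1970 and a log2 difference of 0.04, which turned to -0.010 with median centring and to -0.0042 with quantile normalization. The dim 1433809_at read 15.3, 10.9 and 16.6 against 17.2, 17.0 and 21.2 (log2 difference 0.19). A log2 difference of 0.57 to 0.73 was thus seen on the called probe sets and one of 0.04 to 0.19 on the other kinds. Over the alternatives the adjusted p of the 2 called probe sets ran from 0.0192 to 0.202, with log2 differences from 0.43 to 0.94, and each passed in 5 of 15 of them.

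Hnrnpf binds runs of guanines and regulates splice site choice. Its probe set 1437099_x_at rose, from 259, 282 and 288 in wild-type to 404, 368 and 428 in mutant arrays. Every mutant array lay above every wild-type array, with means of 276 ± 14.98 and 399.97 ± 30.6 (SD, n = 3) and a log2 difference of 0.51 ± 0.08 (SE; limma adjusted p = 0.0482). Over the alternatives its adjusted p ran from 0.0305 to 0.202, and it passed in 5 of 15. The other 3 probe sets of Hnrnpf overlapped between the groups. Probe set 1456664_x_at gave 1169, 1156 and 1189 against 1392, 1134 and 1230 (log2 difference 0.09). Probe set 1423382_a_at gave 457, 426 and 439 against 452, 388 and 421 (-0.07), and 1450963_at gave 382, 311 and 335 against 332, 363 and 327 (-0.01). The sign of the last of these turned with quantile normalization (0.024).

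**Figure D2:**
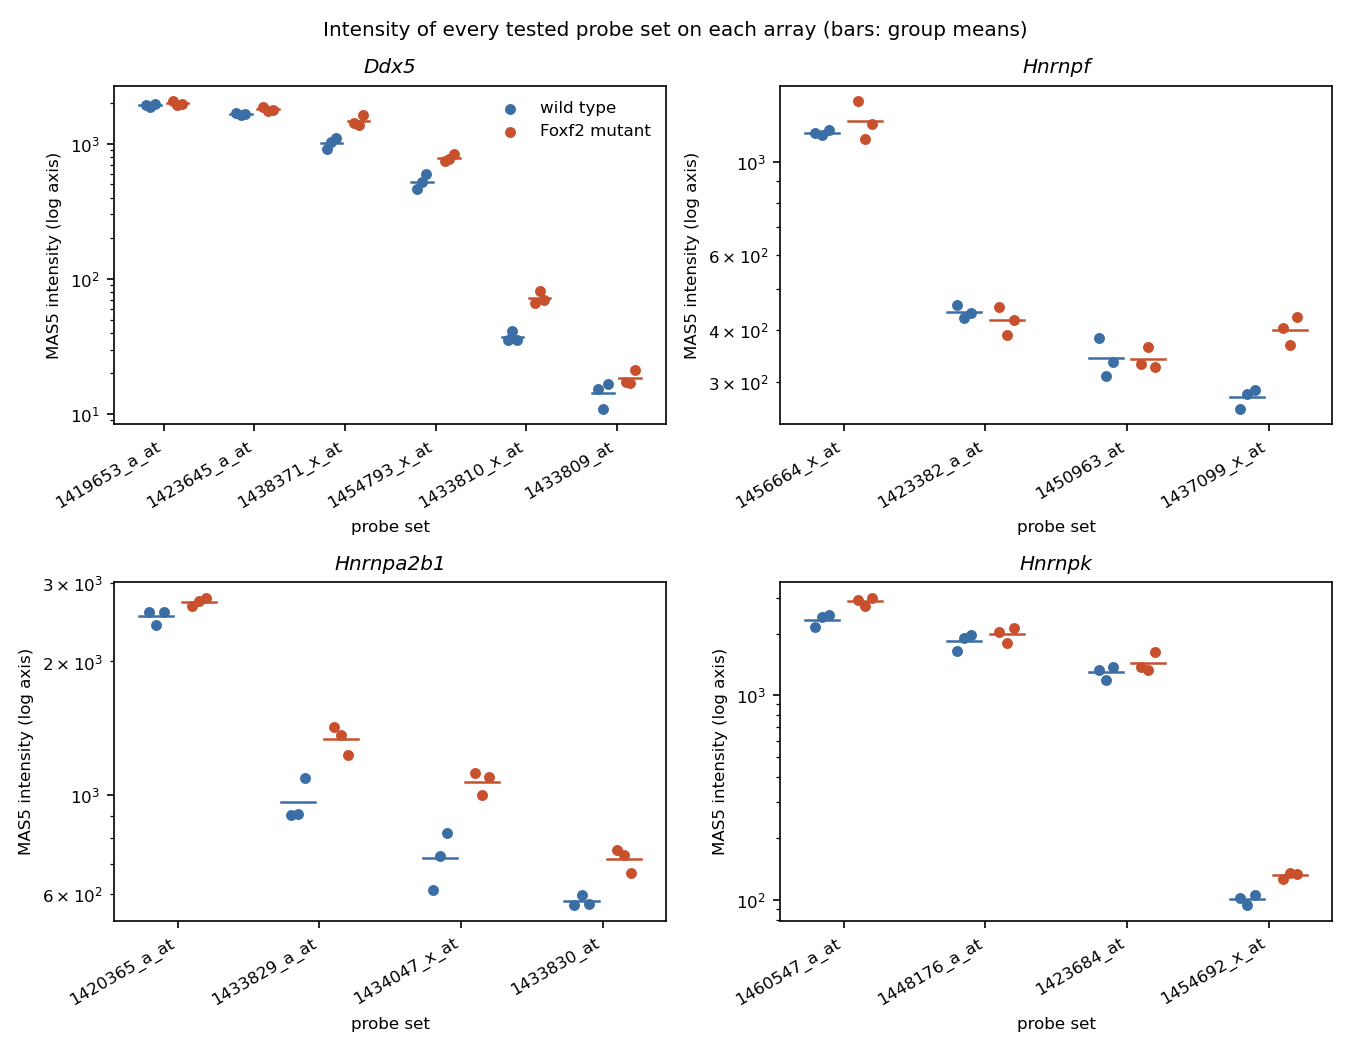
MAS5 intensities (log axis) of every tested probe set of Ddx5, Hnrnpf, Hnrnpa2b1 and Hnrnpk on each array, with bars at the group means of 3 wild-type and 3 Foxf2 mutant arrays. The groups separate on every probe set of Ddx5 except 1419653_a_at and on all 4 probe sets of Hnrnpa2b1. They also separate on 1437099_x_at of Hnrnpf and on 1460547_a_at and 1454692_x_at of Hnrnpk. On the remaining probe sets, such as 1450963_at of Hnrnpf, they overlap.

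The start regions of Ddx5, Hnrnpa2b1 and Hnrnpk are shown because these were the genes with at least 4 tested probe sets that all read higher. The sequences are those of RefSeq on GRCm38.p6, from 250 bases before to 50 bases after an annotated start, written 5′ to 3′ on the strand of the gene. They come from an annotation separate from the array's, and the array data say nothing of which start was used. Capitals mark the letters TATAAA, searched on the strand of the gene, and CCAAT, searched on both strands and written as ATTGG where it lies on the opposite strand. These motifs do not overlap each other here. Ddx5 has 3 listed starts, and the one with TATAAA, 30 bases before the start, lies at chr11:106788445-106788744 on the minus strand. Hnrnpa2b1 has 2 listed starts that lie close together and is shown at chr6:51469845-51470144 on the minus strand and Hnrnpk at chr13:58402068-58402367 on the minus strand.
Ddx5: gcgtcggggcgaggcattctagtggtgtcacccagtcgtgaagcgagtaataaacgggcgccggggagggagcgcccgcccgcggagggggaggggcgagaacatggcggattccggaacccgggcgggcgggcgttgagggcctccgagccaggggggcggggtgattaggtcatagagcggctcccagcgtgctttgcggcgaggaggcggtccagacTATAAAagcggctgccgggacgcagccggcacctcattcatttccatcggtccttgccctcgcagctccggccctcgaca
Hnrnpa2b1: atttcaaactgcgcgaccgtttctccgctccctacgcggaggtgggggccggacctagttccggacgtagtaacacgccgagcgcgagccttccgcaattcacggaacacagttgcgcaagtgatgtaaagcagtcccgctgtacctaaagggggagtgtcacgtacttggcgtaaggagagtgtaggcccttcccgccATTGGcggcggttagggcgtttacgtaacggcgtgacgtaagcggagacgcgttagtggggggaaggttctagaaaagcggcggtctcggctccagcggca
Hnrnpk: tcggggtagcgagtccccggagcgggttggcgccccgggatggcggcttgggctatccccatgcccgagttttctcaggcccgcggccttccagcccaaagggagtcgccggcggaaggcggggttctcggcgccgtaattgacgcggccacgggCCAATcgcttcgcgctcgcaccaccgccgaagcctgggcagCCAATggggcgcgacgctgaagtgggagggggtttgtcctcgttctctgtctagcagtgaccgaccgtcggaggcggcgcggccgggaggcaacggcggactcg

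CpG pairs numbered 34, 34 and 40 in these windows of Ddx5, Hnrnpa2b1 and Hnrnpk. The RefSeq table of start regions, which is separate from the gene table, held 76 starts of 57 of the 63 genes, without Ddx6, Ddx11, Ddx23, Ddx39a, Hnrnpll and Hnrnpul2. Over these starts the median was 27 CpG pairs per 300 bases, against 7 over all 32851 starts. The SR starts had the most, with a median of 38, and the DEAD-box starts had 24. TATAAA was in 11.8% of the family starts and 8.32% of all starts. CCAAT on either strand was in 52.6% of the family starts and 37.4% of all, with 61.5% of the hnRNP and 30.8% of the SR starts. A match is a description of these letters and not a binding site.

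Among the hnRNP genes that package transcripts, Hnrnpa2b1, an RNA transport and splicing factor, read higher on all 4 of its tested probe sets and in every mutant array on each, without passing the threshold. Probe set 1434047_x_at gave 611, 731 and 823 in wild-type and 1124, 999 and 1098 in mutant arrays (log2 difference 0.57, limma adjusted p = 0.0628). Probe set 1433829_a_at gave 904, 905 and 1094 against 1427, 1364 and 1231 (0.47, adjusted p = 0.0766). The groups did not overlap on either. Probe set 1433830_at gave 565, 596 and 569 against 753, 732 and 668 (0.31, adjusted p = 0.0999), and 1420365_a_at gave 2581, 2419 and 2578 against 2661, 2733 and 2780 (0.11, adjusted p = 0.435). Here the higher readings included 3 probe sets of other suffixes. The adjusted p of 1434047_x_at ran from 0.0434 to 0.230 over the alternatives and passed in 2 of 15.

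Hnrnpk, which binds cytosine-rich RNA and single-stranded DNA, had log2 differences above 0 on all 4 tested probe sets, at 0.11, 0.15, 0.30 and 0.34. Probe set 1460547_a_at gave 2154, 2405 and 2458 in wild-type and 2911, 2727 and 2987 in mutant arrays, and 1454692_x_at gave 102, 93.7 and 106 against 126, 135 and 134. Neither of these passed, though the groups did not overlap on them (limma adjusted p = 0.112 and 0.141), and on the other 2 probe sets they overlapped. Hnrnpa1, a splicing repressor, had 0.20 and 0.22 on 2 probe sets and -0.09 on its _x_at probe set. Only 1436549_a_at of this gene separated the groups.

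The genes of the H and F group, which bind guanine runs, differed between probe sets and genes. Hnrnph1 had the largest log2 difference of the 3 families, 0.90 on 1437267_x_at, which gave 44.8, 32.0 and 57.1 in wild-type and 99.7, 84.6 and 102 in mutant arrays (limma adjusted p = 0.0597). Its other probe set, 1415872_at, overlapped and had 0.02. Hnrnph2 gave 419, 474 and 607 against 605, 721 and 628 on its only probe set, which overlapped by 1 array (0.38, adjusted p = 0.243). Hnrnph3 gave 628, 562 and 651 against 605, 520 and 490.5, overlapping, with a log2 difference of -0.19 (adjusted p = 0.411).

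In 2 hnRNP genes probe sets read in opposite directions at an unadjusted p under 0.05. With Srsf1 this was so in 3 of the 37 family genes with several tested probe sets, against 144 of 6195 over the array. The array count was not weighted to the probe set numbers of the family genes. Hnrnpr, which binds messenger RNA in axons of motor neurons, gave 438, 629 and 641 in wild-type and 904, 878 and 1030 in mutant arrays on 1437526_x_at (log2 difference 0.72, limma adjusted p = 0.0741). On 1438807_at it gave 112, 102 and 136 against 104, 77.3 and 83.1 (-0.35, adjusted p = 0.290). These are a clear separation upwards and an overlap by 1 array downwards. The span between them, 1.07 log2 units, was the widest within any family gene. Hnrnpdl, a relative of the AU-rich element binder Hnrnpd, had 7 tested probe sets. Its 1428224_at gave 178, 189 and 208 against 253, 256 and 306 (0.47, adjusted p = 0.0851) and 1456698_s_at gave 769, 721 and 921 against 1046, 1054 and 1216 (0.46, adjusted p = 0.0999). Its 1428225_s_at lay lower in every mutant array, with 253, 257 and 234 against 224, 209 and 214 (-0.19, adjusted p = 0.307), and the other 4 ran from -0.13 to 0.13.

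The remaining hnRNP genes differed little or lay lower. Hnrnpul2, a relative of the nuclear scaffold protein gene Hnrnpu, had log2 differences of -0.23 and -0.15 on its probe sets. On 1434551_at all 3 mutant arrays (733, 670 and 595) lay below the wild-type arrays (834, 774 and 743; limma adjusted p = 0.282). Hnrnpu itself ran from -0.13 to 0.12 over 5 probe sets, and its 1423050_s_at gave 1565, 1243 and 1596 against 1594, 1599.8 and 1566. Hnrnpab, which regulates messenger RNA in neurons among other cells, ran from -0.34 to 0.26 over 7, and its 1455855_x_at gave 2906, 2869 and 3046 against 3426, 2747 and 3322. The groups overlapped on every probe set of both genes. Hnrnpl, which binds CA repeats, gave 135, 126 and 141 against 147, 104 and 109 (log2 difference -0.15), with overlap. Hnrnpa0 had -0.01, Hnrnpm 0.10 and Hnrnpul1 -0.04, and the probe sets of Hnrnpc, Hnrnpd and Hnrnpll lay between -0.13 and 0.08.

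Of 32 SR probe sets 0 passed the threshold by limma, and without adjustment (p under 0.05) 5 read higher and 3 lower. The highest was Srsf12, a small SR-related splicing repressor, whose only probe set gave 117, 162 and 141 in wild-type and 199, 235 and 222 in mutant arrays. The groups did not overlap (log2 difference 0.60 ± 0.12, SE; limma adjusted p = 0.0800). Srsf10, which represses splicing when dephosphorylated, read higher on 1423982_at, with 160, 145 and 189 against 261, 252 and 216 (0.52, adjusted p = 0.0901). Its 1418527_a_at overlapped, with 279, 234 and 243 against 265, 218 and 222 (-0.10), and the remaining ones had -0.05 and 0.15.

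Srsf1, the founding SR protein gene, had 6 tested probe sets in disagreement. Its 1428099_a_at gave 1223, 1434 and 1707 in wild-type and 1966, 1953 and 2014 in mutant arrays (log2 difference 0.45, limma adjusted p = 0.116), and its 1434972_x_at had 0.26. Its 1452430_s_at lay lower in all mutant arrays, with 998, 976 and 962 against 888, 867 and 905 (-0.14, adjusted p = 0.314). The other 3 lay between -0.03 and 0.21. Srsf2, which binds exonic enhancers, gave 467, 441 and 460 against 390, 372 and 419 on 1415807_s_at (-0.21, adjusted p = 0.245), without overlap, and -0.20, -0.03 and 0.08 on the others.

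Srsf9 lay lower, with 332, 376 and 353 in wild-type and 321, 316 and 269 in mutant arrays (log2 difference -0.22, limma adjusted p = 0.315), which did not overlap. Srsf4, with a long serine and arginine rich domain, gave 457, 384 and 388 against 387, 360.0 and 348 (-0.16), with overlap. Srsf6 had 0.29 on 1447898_s_at, with overlapping groups, and -0.11 to 0.03 on its other 3 probe sets. Srsf3, an SR protein active in export, ran from -0.08 to 0.15 over 6 probe sets, and its 1416150_a_at gave 1755, 1658 and 1801 against 1819, 1675 and 1718, which overlapped. Srsf5 gave 1821, 1897 and 1802 against 1738, 1959 and 1978, also overlapping (0.04, and -0.017 with median centring), and the 4 probe sets of Srsf11 lay between -0.05 and 0.05.

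Of the DEAD-box genes of splicing and transcription other than Ddx5, Ddx17, its closest relative, read higher on 1437773_x_at, with 2042, 2047 and 2263 in wild-type and 2496, 2388 and 2459 in mutant arrays (log2 difference 0.21, limma adjusted p = 0.194). Its other probe sets had -0.09 and 0.0011. Ddx39b, a helicase of spliceosome assembly and export, lay lower in all mutant arrays on 2 probe sets. They gave 1444, 1420 and 1533 against 1393, 1252 and 1300 (-0.16, adjusted p = 0.328) and 1128, 1071 and 1031 against 926, 986 and 873 (-0.21, adjusted p = 0.227), while its dim 1447779_x_at had 0.43 with overlapping groups. Ddx46, which acts on the U2 particle, had 4 of 5 probe sets below 0, from -0.20 to 0.11. Ddx41, Ddx20, Ddx42 and Ddx23 had -0.10, -0.06, 0.09 and 0.14.

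Helicases of ribosome assembly formed the largest group by role, a grouping made from textbook knowledge after the values were seen. Of its 14 genes with 25 tested probe sets 0 passed, 16 of the 25 read below 0, and the median log2 difference was -0.07. Over all tested probe sets 51.4% read below 0, with a median of -0.01. In the middle tertile of mean intensity 4926 of 9006 did, with a median of -0.02. Ddx24 was lowest, with 268, 274 and 268 in wild-type and 234, 197 and 220 in mutant arrays, which did not overlap (-0.30, limma adjusted p = 0.155). Ddx10 lay lower on 1428563_at, with 78.6, 72.1 and 82.1 against 65.6, 59.9 and 63.6 (-0.24, adjusted p = 0.328). Ddx21 lay higher on 1448270_at, with 96.0, 97.0 and 109 against 115, 113 and 138 (0.24, adjusted p = 0.357), and had -0.07 on its other probe set. Ddx55 gave 39.5, 47.7 and 40.5 against 32.5, 30.6 and 43.3 (-0.19), with overlap. Ddx10, Ddx24, Ddx49 and Ddx55 had both of their tested probe sets below 0. The 15 probe sets of Ddx18, Ddx27, Ddx31, Ddx47, Ddx50, Ddx51, Ddx52, Ddx54 and Ddx56 lay between -0.14 and 0.23, and the groups separated on 1 of them, of Ddx31 at -0.14.

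In the remaining DEAD-box genes, Ddx1, a subunit of the tRNA ligase complex, gave 533, 472 and 563 in wild-type and 678, 719 and 722 in mutant arrays on 1440816_x_at (log2 difference 0.43, limma adjusted p = 0.0612). Its 1415915_at, with means of 788 and 785, had -0.01. Ddx39a, a relative of Ddx39b in messenger RNA export, had 4 of 5 probe sets above 0, led by 1451065_a_at with 246, 259 and 263 against 284, 315 and 390 (0.34, adjusted p = 0.230). Ddx6, a component of P-bodies, ran from -0.11 to 0.14. Ddx19b, a helicase of messenger RNA export at the nuclear pore, had 0.09 and 0.31, without overlap on either probe set. Ddx11, a DNA helicase of chromosome cohesion, had 0.24, Ddx28 0.03 and Ddx59 -0.10. Ddx58, which encodes the viral RNA sensor RIG-I, gave 26.6, 29.1 and 27.5 against 34.6, 48.4 and 31.1 (0.29, adjusted p = 0.426). Of the germ line and testis genes Ddx4, Ddx25 and Ddx43, only Ddx25 was bright enough to be tested, with intensities of 312, 331 and 303 against 305, 347 and 332 (0.05). The 20 family probe sets below the intensity limit, of 17 genes, had mean intensities from 0.797 to 12.9, and the groups separated on 1 of them, of Ddx23. Over all tested probe sets the groups stood apart with the mutants higher in 10.9% and lower in 9.38%.

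**Figure D3:**
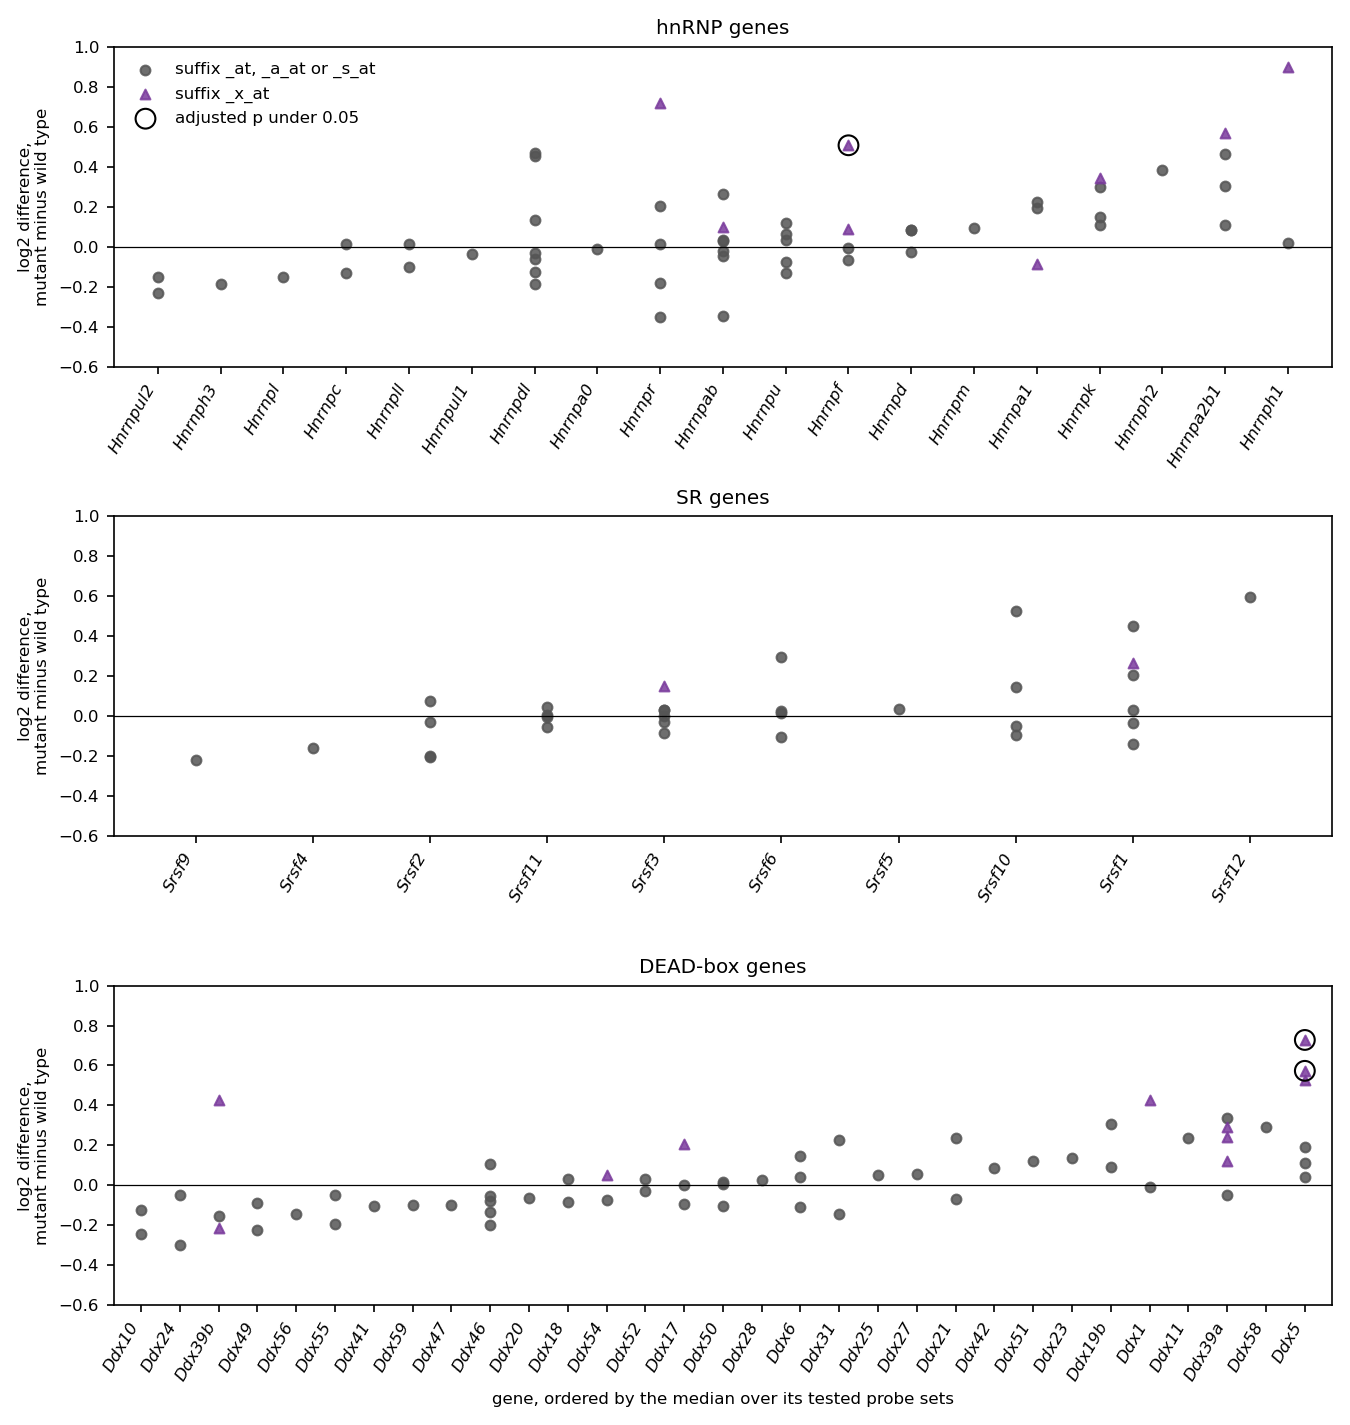
Log2 difference (mutant minus wild type) of every tested probe set, by gene, with genes ordered by their median within each family, triangles for the suffix _x_at and rings for an adjusted p under 0.05. The rings lie on triangles of Ddx5 and Hnrnpf, and in genes such as Hnrnpr, Hnrnpdl and Srsf1 the probe sets of 1 gene span both sides of 0.

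Probe sets of a gene mostly did not agree in direction. Of the 37 family genes with several tested probe sets, 10 had all of them on the same side of 0, of which 5 were higher (Ddx5, Hnrnpa2b1, Hnrnpk, Hnrnph1 and Ddx19b) and 5 lower (Hnrnpul2, Ddx10, Ddx24, Ddx49 and Ddx55). This is 27.0%, while genes of the whole array with as many probe sets, weighted to the same numbers, agreed in 33.0%. With median centring the count was 14, of which 3 were higher and 11 lower, and with it, as with quantile normalization, Ddx5 and Hnrnph1 no longer had all probe sets above 0. Centring moves the difference of every probe set by the same -0.05, and the share over the array was not counted under it. Without centring, 4 of 13 hnRNP genes (30.8%), 0 of 6 SR genes and 6 of 18 DEAD-box genes (33.3%) agreed. Genes of the whole array, weighted to the probe set numbers of each family, agreed in 29.5%, 15.3% and 41.5%. The median span between the highest and the lowest probe set of a gene was 0.28 log2 units. The mean span was 0.34, against 0.31 over the 6195 genes of the array with several, weighted to the same numbers of probe sets. Probe sets of a gene share its RNA and are not replicates of the comparison, and their positions on the transcripts were not used here.

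The suffix went with the difference. Probe sets of suffix _x_at made up 13.9% of the tested family probe sets and 6.04% of all tested. Their median log2 difference was 0.29 in the families (21 probe sets) and 0.10 over the array (1631). For the other suffixes together the family median was 0.00 over 130 probe sets and the array median -0.01. At an unadjusted p under 0.05, 12 of the 21 read higher (57.1%), against 25.1% of all _x_at probe sets, and 13 of the 130 others (10.0%) against 6.67%. Among the 130 others 9 read lower (6.92% against 5.93%), and 65 lay on each side of 0. For the plain suffix _at alone, 6.82% of the family probe sets read higher, against 6.18% of all. The excess among the others lay more in the suffix _a_at. There 5 of 27 family probe sets read higher and 1 lower, against 8.01% and 6.6% of all _a_at probe sets. For the suffix _s_at 2 of 15 read higher and 3 lower, against 9.69% and 7.6% of all.

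Within genes the pattern was the same. In 15 family genes with a tested _x_at probe set and another kind, the mean log2 difference of the _x_at probe sets exceeded that of the others in 14, by a median of 0.26, and Hnrnpa1 was the exception at -0.30. Over all 975 such genes of the array this was so in 69.1%, by a median of 0.11. The excess was widest in Hnrnph1 (0.88), Hnrnpr (0.80) and Ddx5 (0.50). On single arrays, the gap is the log2 value of the _x_at probe sets minus that of the others, relative to the wild-type mean of the gene. This centres the wild-type values and hides the gap between the kinds within wild types. The median gap over the 975 genes was -0.02, 0.0056 and 0.02 on wild-type and 0.11, 0.09 and 0.14 on mutant arrays. Array by array, the median gap over the 15 family genes, so centred, was 0.0070, -0.013 and 0.05 in wild-type and 0.21, 0.20 and 0.36 in mutant arrays. Each mutant array stood above each wild-type array. The Gapdh 3′ to 5′ control ratio was lower in all mutant arrays, at 0.702 to 0.741 in wild-type and 0.682 to 0.689 in mutant arrays. Its part in the gap was not tested. The same ratio of Actb overlapped, at 1.24 to 1.31 and 1.31 to 1.33, and its mutant values lay towards the upper end.

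**Figure D4:**
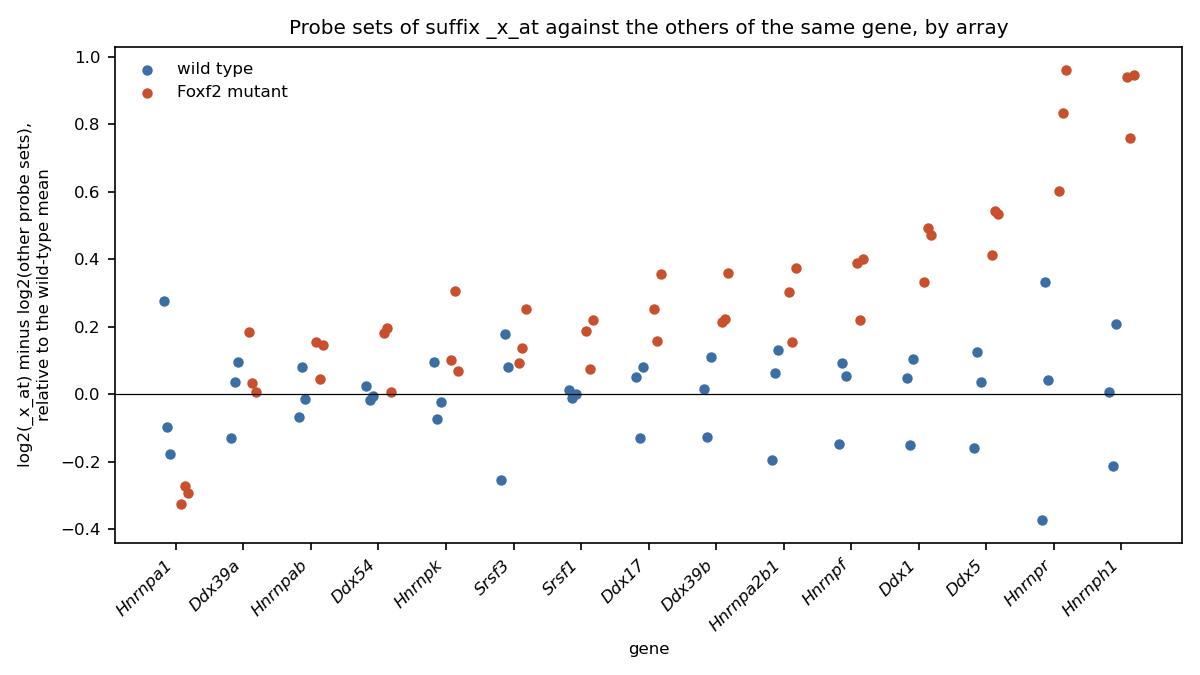
For 15 genes with both kinds of probe set, each point is 1 array: the mean log2 value of the _x_at probe sets minus that of the others, relative to the wild-type mean of the gene. The mutant arrays lie above the wild-type arrays in most genes, by 0.88 in Hnrnph1 and 0.50 in Ddx5, and below them in Hnrnpa1 by 0.30.

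Other splicing and RNA-binding genes were set beside the families, with each gene represented by its brightest probe set. Of 77 tested genes of the core spliceosome, SR kinases and SR-related proteins, neural splicing regulators, the FET and paraspeckle group, other helicases and the exon junction complex, 0 rose and 0 fell by limma. With no adjustment (p under 0.05), 7 read higher and 9 lower, which is 9.09% and 11.7%, against 7.78% and 5.8% over the array. The median log2 difference was -0.07, with 27 genes above 0 and 50 below (64.9%, against 51.4% of all tested probe sets). These shares over the array were not matched to the brightness of the list. In the upper tertile of mean intensity, 5312 of 9008 probe sets of the array read below 0, with a median of -0.03. There 9.38% read higher and 9.75% lower with no adjustment. In the core spliceosome 16 of 21 genes read below 0 (76.2%). The 2 largest differences in each direction were Rbfox2 at -0.51 (adjusted p = 0.330, overlapping groups) and Dhx38 at -0.37 (adjusted p = 0.324), and Sf3b2 at 0.30 on an _x_at probe set (adjusted p = 0.168) and U2af2 at 0.26 (adjusted p = 0.405, overlapping groups). The other 5 probe sets of Sf3b2 ran from -0.24, with all mutant arrays lower, to 0.06. Over all 222 tested probe sets of the 77 genes 0 passed, 21 read higher and 23 lower without adjustment, and the highest was 0.48, of Sf3b1. Rbfox2 is a neural splicing regulator, Dhx38 a helicase of the spliceosome, Sf3b2 a subunit of the SF3b complex, and U2af2 the factor that binds the polypyrimidine tract before the 3′ splice site.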

How the data were processed

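Total RNA of whole brain was hybridised to 6 Affymetrix arrays. The authors deposited MAS5 intensities, per the submitters' processing notes, with no version given in the sources used here; by their range the values are linear. Leaving out 2% of probe sets at either end, each array had a mean of 100, so the deposited intensity values were already scaled and were not normalized again; this hides any change in total RNA. Groups and replicate numbers came from the labels. After 64 controls were left out, 45037 probe sets were fitted as log2(intensity + 16) in R 4.3.3 with limma 3.58.1 (lmFit, eBayes with trend), two-sided, with Benjamini-Hochberg adjustment over 27022 probe sets. The offset understates changes of dim probe sets, and 3 arrays per group limit the precision. Symbols came from the platform annotation, and the Entrez genes of all 171 member probe sets were in the RefSeq gene table of GRCm38.p6. The separate RefSeq table of start regions held 57 of the 63 genes. The fit was tested on simulated data.

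Members and lists were chosen with earlier results of these data known. Values in every sample are given for genes with a probe set past the threshold, genes whose probe sets all had an unadjusted p under 0.05 in the same direction (0 genes) or had such p-values in opposite directions, and in each family the 3 highest and 3 lowest by the brightest probe set and the 3 brightest; other probe sets at an unadjusted p under 0.05, and genes whose probe sets all lay on the same side of 0, were added after their values were seen. Of the 83 listed splicing and RNA-binding genes 78 were matched. Alternatives covered the offset, the filter, array weights, a replicate block, eBayes without a trend, centring on the median, quantile normalization, no _x_at probe sets, 1 probe set per gene and each array left out. Protein sequences were not used here.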

Additional observations from a re-analysis of the deposited data

Results flagged for a closer look

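One probe set that was too dim to be tested read higher in all 3 mutant arrays than in any wild-type array. It was 1430050_at of Ddx23, a helicase of the U5 particle of the spliceosome, with intensities of 8.52, 6.13 and 10.8 in wild-type and 22.5, 13.4 and 12 in mutant arrays, a ratio of means of 1.88. Among the 20 family probe sets below the intensity limit it was the only one without overlap in this direction, and 0 lay below in all mutant arrays. The tested probe set of Ddx23 had a log2 difference of 0.14.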

How the results depend on the processing

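The count of 3 risen probe sets depended on most settings: it was 9 with the replicate number as a block, 8 with offset 1, 7 with a filter at the 60th percentile, 4 with quantile normalization, 3 with array weights, and 0 with offset 64, no filter, median centring, eBayes without trend, 1 probe set per gene or no _x_at probe sets. It was 0 without any 1 array. Over all tested probe sets the risen count was then 0 too, except for 34 without wild-type array 3 and 28 without mutant array 1. This wider count was 99 in the main setting and 201 with the replicate block. It was 31 without _x_at probe sets and 12 with 1 probe set per gene. The count of fallen members was 0 in all settings run. Median centring gave family medians of -0.023 (hnRNP), -0.042 (SR) and -0.039 (DEAD-box), against -0.060 over all tested probe sets. It takes a constant from each array, so every difference moved by the same -0.054. The DEAD-box median was -0.038 without _x_at probe sets, against -0.012 over all tested probe sets of the other suffixes. Same-numbered arrays of the groups correlated in their deviations from the group means by 0.183, 0.132 and 0.0892. The last is under 0.1 and the labels state no shared litter or day, so the numbers were not taken as pairs, although each array correlated best with its own number, a hint from the data. With the replicate block 1 other splicing gene fell, while 19 of all tested probe sets did. Among the added members were probe sets of Hnrnph1, Hnrnpr, Hnrnpdl and Srsf12. Over all 151 tested members 24 signs turned with median centring, 11 with quantile normalization, 2 with array weights and 1 with offset 64, all of differences of at most 0.0509 in size, and 9 to 17 with 1 array left out, of differences of up to 0.262. Of the 62 probe sets followed singly, signs turned for 8. Quantile normalization gave -0.0042 for 1419653_a_at of Ddx5, -0.015 for 1423130_a_at of Srsf5, -0.022 for 1427129_a_at of Hnrnpr and 0.024 for 1450963_at of Hnrnpf. Median centring gave -0.010, -0.017 and -0.043 for the first 3 and -0.024 for 1428100_at of Srsf1. Array weights gave 0.0019 for 1416150_a_at of Srsf3 and 0.0016 for 1450963_at. Leaving out 1 array, the log2 difference ran from -0.070 to 0.072 for 1450963_at, from -0.072 to 0.087 for 1427129_a_at, from -0.0087 to 0.084 for 1428100_at, from -0.146 to 0.029 for 1453722_s_at of Srsf1, from -0.034 to 0.025 for 1416150_a_at and from -0.074 to 0.015 for 1449039_a_at of Hnrnpdl. Precision is limited by 3 arrays a group and by dim signal.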
